A study of Homo sapiens with 6 samples.

Results

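The histone deacetylases HDAC1 to HDAC11 were followed in a pooled knockdown screen through the short hairpin RNAs (shRNAs, called hairpins here) that target them. All hairpins annotated with 1 of these 11 gene symbols were taken, which gave 88 of the 7293 hairpins seen in at least 1 library and 11 of 912 genes, with 8 hairpins for every gene. Class I (HDAC1, HDAC2, HDAC3 and HDAC8) and class IIa (HDAC4, HDAC5, HDAC7 and HDAC9) had 32 hairpins each, class IIb (HDAC6 and HDAC10) had 16 and class IV (HDAC11) had 8. SKK-1 is an established human cell line from an acute myeloid leukemia that arose from a myelodysplastic syndrome, and it is the only line of the screen. In 3 separately transduced and puromycin-selected cultures, all carrying the Epi9 hairpin pool in a lentiviral vector, a part stayed untreated and a part was given 0.25 µM azacitidine (AZA) every 2 days. Genomic DNA of all 6 samples (untreated 1 to 3, AZA 1 to 3) was taken at 14 days, the guide strands were amplified and sequenced, and a count therefore stands for cells that carried the hairpin at harvest. The comparison asks whether cells with less of a deacetylase survived or grew worse or better under AZA than the other cells of the pool. How far each hairpin lowered its target was not measured in these files.

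Histone deacetylases remove acetyl groups from lysines of histones and other proteins and so oppose acetyltransferases such as CBP and p300. HDAC1 and HDAC2 are the near-identical catalytic subunits of the NuRD, SIN3, CoREST and MiDAC repressor complexes, HDAC3 works in the NCoR/SMRT complex, and HDAC8 deacetylates cohesin. Class IIa enzymes have little deacetylase activity of their own and shuttle between nucleus and cytoplasm as partners of MEF2 factors. HDAC6 is a cytoplasmic tubulin deacetylase, HDAC10 acts on polyamines and HDAC11 removes fatty acyl groups. Deacetylase inhibitors have long been tried together with DNA methyltransferase inhibitors such as AZA in myeloid disease.

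The class I genes lie on chromosome 1 (HDAC1, 32292083 to 32333635, plus strand), chromosome 6 (HDAC2, 113933028 to 114011308, minus strand), chromosome 5 (HDAC3, 141620876 to 141636849, minus strand) and chromosome X (HDAC8, 72329516 to 72573101, minus strand; GENCODE 44 on GRCh38 throughout). The class IIa genes lie on chromosome 2 (HDAC4, 239048168 to 239401654, minus strand), chromosome 17 (HDAC5, 44076746 to 44123702, minus strand), chromosome 12 (HDAC7, 47782722 to 47833132, minus strand) and chromosome 7 (HDAC9, 18086949 to 19002416, plus strand). HDAC6 (48801377 to 48824982, plus strand) is on chromosome X, HDAC10 (50245183 to 50251405, minus strand) on chromosome 22 and HDAC11 (13479724 to 13506424, plus strand) on chromosome 3. These positions locate the genes, since the files hold no coordinates.

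For 7 of the 11 genes the hairpin names point to overlapping target sites. A hairpin's name ends in a number that was read as the position of its target in the transcript: among genes whose guide sequences were at hand, which do not include the deacetylases, guides numbered fewer than 22 apart were shifted by exactly that distance in 325 of 325 pairs, and a guide has 22 bases. By this reading 21 of the 88 HDAC hairpins overlapped another one, in 15 pairs over 7 genes, and HDAC3, HDAC4, HDAC9 and HDAC11 had no such pair. HDAC8 had the most, with HDAC8.40, HDAC8.41 and HDAC8.42 in one cluster and HDAC8.79, HDAC8.81 and HDAC8.90 in another. HDAC10 had HDAC10.797, HDAC10.800 and HDAC10.801, and HDAC10.2625 with HDAC10.2626. The others were HDAC1.263 with HDAC1.264, HDAC2.516 with HDAC2.517, HDAC5.2543 with HDAC5.2557, HDAC6.173 with HDAC6.178 and HDAC7.2346 with HDAC7.2348.

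The libraries held 12292575 to 19645459 counts without drug and 18542022 to 22587662 counts under AZA. Values are given as CPM, a hairpin's count scaled to the file total, while fold changes were fitted with TMM scaling. A hairpin with 0 counts could still have stood at 0.133 to 0.244 CPM, depending on the library (the level of 3 counts, for counting error only, since PCR reads without molecular identifiers are not independent molecules). Abundance was less evenly divided in the untreated libraries, where the Gini coefficient over all hairpins was 0.484 to 0.513 against 0.400 to 0.407 under AZA. For the 88 HDAC hairpins it was 0.478 to 0.486 and 0.411 to 0.444. Across HDAC hairpins, which are not independent replicates, log2(CPM + 1) correlated at r = 0.221 to 0.338 between untreated libraries and at 0.523 to 0.577 between AZA libraries. Across all hairpins r was 0.42 to 0.44 between untreated libraries and 0.57 to 0.59 between AZA libraries.

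HDAC hairpins were scarcer than the pool in every library, treated or not. Their median was 74.1, 64.0 and 83.4 CPM in untreated 1, 2 and 3, against 99.98, 97.8 and 99.4 CPM over all hairpins. Under AZA it was 93.0, 78.1 and 69.4 CPM in samples 1, 2 and 3, against 109.8, 109.9 and 111 CPM. Between 28 and 34 of the 88 lay above the pool's median in any one library. They made up 1.21% of all hairpins and held 0.834% ± 0.0874 of the counts without drug and 0.895% ± 0.0512 under AZA (mean ± SD, n = 3 each), a difference smaller than the SD of the untreated samples. By culture the share was 0.868%, 0.735% and 0.900% in untreated 1, 2 and 3. It was 0.946%, 0.843% and 0.897% in AZA 1, 2 and 3, thus higher in pairs 1 and 2 and slightly lower in pair 3. The abundance of the pool before selection was not analysed here, so that a low level from the start and a loss of cells during culture cannot be told apart.

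HDAC2 was the exception among the genes. The CPM of its 8 hairpins summed to 1403 to 2269 in the 6 libraries, above the median gene (993 to 1042 CPM) in all of them, and placed it at the 93.8th percentile of 912 genes without drug and at the 97.1st under AZA. A single hairpin, HDAC2.3900, held 41.5% of this sum and was the most abundant HDAC hairpin in all 6 libraries. HDAC5 stood at the other end, at the 2.30th percentile without drug and the 0.987th under AZA, and HDAC1, HDAC3, HDAC4, HDAC5, HDAC7, HDAC10 and HDAC11 were below the median gene in 6 of 6 libraries. By mean untreated level the order was HDAC2, HDAC6, HDAC1, HDAC3, HDAC8, HDAC10, HDAC9, HDAC11, HDAC4, HDAC7 and HDAC5. HDAC2 lay above all other HDAC genes in every library, while any other neighbours in this order overlapped.

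Many HDAC hairpins, like hairpins of the whole pool, were nearly lost from a single untreated sample while the other untreated samples kept them. Below 10 CPM were 24 of the 88 (27.3%) in at least 1 untreated library, of which 18 were that low in 1 library, 5 in 2 and 1 (HDAC7.3393) in 3. Under AZA 7 (7.95%) were that low in at least 1 library. Over all hairpins these shares were 21.5% and 5.72%, and 1165 of 7293 were that low in exactly 1 untreated library. HDAC4.1292, for example, had 3 counts in untreated 1 and 1193 and 1457 in untreated 2 and 3, and HDAC10.800 had 1, 5778 and 342 counts. In AZA 1, the treated part of the culture of untreated 1, they had 3212 and 784 counts. HDAC7.2298 and HDAC10.797 had 0 counts in untreated 3 and 667 to 1007 counts in untreated 1 and 2. In AZA 3, the treated part of the culture of untreated 3, they had 1236 and 380 counts. In these examples the treated part of the same culture thus kept the hairpin, and how the difference arose was not tested. Such differences between samples of one group enter the error of the fold changes given below.

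HDAC5.898 was seen in 1 library only. It had 1848 counts (94.1 CPM) in untreated 3 and 0 counts in the other 5, AZA 3 included, which came from the same transduced culture. Of all 7293 hairpins, 4 were above 10 CPM in 1 library and at 0 in the rest. It did not pass the count filter, so that 87 HDAC hairpins were tested. In a fit with no filter it had an edgeR unadjusted p of 0.0173 and an adjusted p of 0.745.

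No HDAC hairpin differed between AZA and untreated samples after correction. By the edgeR quasi-likelihood test with Benjamini-Hochberg adjustment over 7262 hairpins, 0 of 87 had an adjusted p under 0.05, where 0.0689% of all hairpins did, and the lowest adjusted p was 0.643. The 95% intervals were wide, with a median half-width of 1.92 on the log2 scale, and 1 of the 87 (HDAC2.3900) lay within a 2-fold and 15 within a 4-fold change in either direction, so that moderate changes of single hairpins were not detectable here. At an unadjusted p under 0.05 there were 2 lower and 1 higher HDAC hairpins, against 3.72% of all hairpins lower and 1.9% higher. By DESeq2 1 HDAC hairpin was called (1.86% of all hairpins), and with the replicate number as a block 0 were called. The AZA and untreated samples did not overlap for 4 HDAC hairpins on the lower side (4.29% of all hairpins) and 9 on the higher side (9.13% of all), shares near those of the pool.

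HDAC11.623 had the smallest p of the family. It stood at 21.1, 26.6 and 26.4 CPM in untreated 1, 2 and 3 and at 247, 179 and 122.9 CPM in AZA 1, 2 and 3. All AZA samples lay above all untreated ones, and the untreated samples were close together. The log2 fold change was 2.72 ± 0.70 (SE; 95% interval 1.20 to 4.24, n = 3 each), with an edgeR adjusted p of 0.643 and a DESeq2 adjusted p of 0.000642. It is the hairpin that DESeq2 called. A second hairpin against the same gene, HDAC11.684, had the opposite sign, with 53.0, 85.3 and 112 CPM untreated and 38.2, 2.66 and 20.4 CPM under AZA (-2.20 ± 1.14, edgeR adjusted p = 0.898).

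The remaining hairpins with small p lay in both directions as well. HDAC3.491 had 178, 123.3 and 157 CPM untreated and 35.9, 90.2 and 33.2 CPM under AZA (log2 fold change -1.68 ± 0.69 SE, edgeR adjusted p = 0.829). HDAC5.1132 had 119.9, 62.3 and 102 CPM untreated and 32.5, 11.7 and 26.5 CPM under AZA (-2.16 ± 0.93, edgeR adjusted p = 0.855). In both, every AZA sample was below every untreated one. HDAC10.801 had 263, 92.0 and 105 CPM untreated and 43.7, 103 and 56.1 CPM under AZA, so that its groups overlapped (-1.33 ± 0.70, edgeR adjusted p = 0.898).

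On the higher side HDAC2.1442 had 18.5, 48.6 and 13.4 CPM untreated and 87.0, 123.1 and 121 CPM under AZA (log2 fold change 1.86 ± 0.90 SE). HDAC6.859 had 78.5, 64.2 and 63.4 CPM untreated and 133, 183 and 214 CPM under AZA (1.20 ± 0.59). Neither pair of groups overlapped. HDAC8.90 had 17.1, 1.94 and 11.6 CPM untreated and 101, 119.6 and 10.5 CPM under AZA (2.77 ± 1.36), with AZA 3 inside the untreated range. The edgeR adjusted p was 0.898 for each of the 3.

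To have 1 value per gene and sample, the counts of a gene's hairpins were summed and tested over all 912 genes. None of the 11 HDAC genes was called (edgeR quasi-likelihood test, adjusted p = 0.605 to 0.985, lowest unadjusted p 0.192), where 1.21% of all genes were. In 0 of the 11 the AZA and untreated samples were apart, which was so for 18.5% of all genes. The log2 fold changes ran from -0.32 to 0.41, with 4 genes on the lower and 7 on the higher side and a median of 0.052, against -0.015 over all genes. For 10 of the 11, the 95% interval lay within a 2-fold change in either direction, and the bounds over all 11 were 0.518-fold and 2.07-fold. A sum follows its most abundant hairpins, so that it says little of scarce ones.

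Among class I genes, the hairpins of HDAC1 summed to 776, 821 and 906 CPM untreated and to 736, 717 and 979.6 CPM under AZA. The log2 fold change was -0.06 ± 0.24 (SE; 95% interval -0.56 to 0.43), and 6 of its 8 hairpins had negative values, from -1.0 for HDAC1.1379 to 1.32 for HDAC1.83. With the replicate block only 3 of the 8 were negative. HDAC1.83 had 2.28, 99.1 and 10.3 CPM untreated and 81.8, 105 and 132 CPM under AZA.

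HDAC2, the other core deacetylase of the same complexes, summed to 1828, 1403 and 2269 CPM untreated and to 1846, 1789.8 and 2259 CPM under AZA. Its interval was the narrowest of the family, at 0.08 ± 0.17 (95% interval -0.29 to 0.45, 0.820-fold to 1.36-fold), and 4 hairpins each were lower and higher. The dominant HDAC2.3900 had 800.2, 594 and 1139 CPM untreated and 702, 584 and 914 CPM under AZA (-0.37 ± 0.29, edgeR adjusted p = 0.991). It was lower in 3 of 3 replicate pairs, by less than the spread between cultures. The lowest value belonged to HDAC2.923 (-0.73 ± 0.84).

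HDAC3 summed to 724, 859 and 509 CPM untreated and to 761, 597 and 754 CPM under AZA, with a log2 fold change of -0.01 ± 0.28 (95% interval -0.59 to 0.57). Its 8 hairpins divided into 4 lower and 4 higher ones, from the -1.68 of HDAC3.491 to 1.55 for HDAC3.302. The latter had 0.407, 8.04 and 40.2 CPM untreated and 54.6, 54.4 and 51.2 CPM under AZA, so that the AZA samples were nearly equal and the untreated ones spread widely. HDAC3.181, its most abundant hairpin, had 0.20 ± 0.60.

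HDAC8 summed to 685, 728 and 558 CPM untreated and to 1094, 695 and 636 CPM under AZA, where sample AZA 1 stood above the rest (0.28 ± 0.28, 95% interval -0.30 to 0.85). Hairpins on the higher side numbered 5 of 8. Values ran from -1.0 for HDAC8.41 to the 2.77 of HDAC8.90, and the most abundant hairpin, HDAC8.42, had -0.26 ± 0.56.

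The 4 class IIa genes had the widest intervals of the family. HDAC4 summed to 587, 325 and 885 CPM untreated and to 764, 647 and 478 CPM under AZA (log2 fold change 0.05 ± 0.34 SE, 95% interval -0.66 to 0.77). On the log2 scale, AZA minus untreated was 0.38 in pair 1, 0.99 in pair 2 and -0.89 in pair 3. Of its hairpins 5 were lower and 3 higher. HDAC4.6084, the lowest of all HDAC hairpins tested at -2.40 ± 1.95, had 33.2, 0.0554 and 113 CPM untreated and 0.431, 17.7 and 12.7 CPM under AZA. HDAC4.1292 had the highest value (1.37 ± 1.23), and HDAC4.8927, the most abundant, had -0.74 ± 0.69.

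HDAC5 summed to 403, 259.7 and 616 CPM untreated and to 305, 478 and 526 CPM under AZA (0.01 ± 0.37, 95% interval -0.76 to 0.79). The untreated 3 value includes the 94.1 CPM of HDAC5.898. Of the 7 hairpins tested, 5 were higher and 2 lower. HDAC5.838 held 36.2% of the gene's sum and had 0.31 ± 0.51. The highest value, 2.27 ± 2.05 for HDAC5.3430, came from 15.5, 0.499 and 0.356 CPM untreated and 15.7, 3.94 and 66.8 CPM under AZA.

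HDAC7 was the gene whose hairpins were most of one sign, with 7 of 8 higher, although the values were small for most and the median was 0.18. It summed to 489, 745 and 369 CPM untreated and to 483, 754 and 608 CPM under AZA (0.18 ± 0.33, 95% interval -0.51 to 0.86), and its first 2 replicate pairs hardly differed, at -0.018 and 0.018 on the log2 scale. The scarce HDAC7.3393 had the highest value of the family (2.85 ± 2.27), from 4.72, 1.72 and 0.204 CPM untreated and 18.7, 23.6 and 10.8 CPM under AZA. HDAC7.3453 was the lower one (-1.33 ± 0.77). HDAC7.2348 had 19.5, 144 and 115 CPM untreated and 20.4, 144 and 164 CPM under AZA. In pairs 1 and 2 the AZA sample stood near the untreated part of its own culture, and in pair 3 it was higher by 0.51 on the log2 scale.

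HDAC9 had the largest gene value, from 797, 408 and 689 CPM untreated to 1209, 699 and 645 CPM under AZA (0.41 ± 0.31, 95% interval -0.23 to 1.05, edgeR adjusted p = 0.605). This interval is the one of the 11 that reached past 2-fold. The value rested largely on AZA 1, without which it fell from 0.41 to 0.072. HDAC9.981 held 29.2% of the sum and had 214, 157 and 51.2 CPM untreated and 422, 223 and 231 CPM under AZA (0.89 ± 0.55). Its groups were apart. Of the 8 hairpins 4 were lower, with HDAC9.1233 the lowest (-0.96 ± 0.76), and 4 higher.

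In class IIb, HDAC6 summed to 1104, 671 and 859 CPM untreated and to 713, 871 and 1009.5 CPM under AZA (log2 fold change -0.04 ± 0.24 SE, 95% interval -0.55 to 0.47). Hairpins on the lower side numbered 5 of 8, from -1.11 ± 0.67 for HDAC6.2594 to the 1.20 of HDAC6.859. HDAC6.3872, the most abundant, had -0.31 ± 0.60.

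HDAC10 had the lowest gene value and was lower in 3 of 3 replicate pairs. It summed to 727, 678 and 537 CPM untreated and to 611, 585 and 384 CPM under AZA (-0.32 ± 0.30, 95% interval -0.95 to 0.31, edgeR adjusted p = 0.724), and the groups overlapped. Of its hairpins 6 of 8 were lower, with HDAC10.2626 at 68.6, 113 and 151 CPM untreated and 49.1, 65.6 and 49.1 CPM under AZA (-1.19 ± 0.73). With the replicate block 2 of 8 were lower and the mean over the hairpins moved from -0.42 to 0.39, and limma on the mean log2 CPM of the hairpins gave 0.68. HDAC10.800, at 0.0813, 320.4 and 17.4 CPM untreated and 42.3, 31.3 and 45.5 CPM under AZA, had -1.70 without the block and 1.33 with it. HDAC10.1597 had the highest value (0.86 ± 0.88).

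HDAC11, the class IV enzyme, summed to 557, 451 and 798 CPM untreated and to 935, 599 and 692 CPM under AZA (0.28 ± 0.30, 95% interval -0.34 to 0.90). Its 8 hairpins, like those of HDAC5, spread most widely (SD 1.48 on the log2 scale for both genes), with HDAC11.623 and HDAC11.684 at the ends and 4 on either side of 0. HDAC11.2270, the most abundant, had 84.6, 13.6 and 356 CPM untreated and 70.6, 98.0 and 137 CPM under AZA (-0.73 ± 0.92).

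Over all 87 tested HDAC hairpins, 44 were lower and 43 higher, with a mean log2 fold change of 0.039 and a median of -0.035. Over all 7262 hairpins the mean was 0.0011, the median -0.096 and the share of lower hairpins 54.9%, against 50.6% in the family. By class the mean and median were 0.11 and -0.039 for class I, 0.13 and 0.094 for class IIa, -0.28 and -0.16 for class IIb and 0.029 and -0.23 for class IV. In class IIb 11 of 16 were lower, and in class IIa 12 of 31. With the replicate block 7 of 16 were lower in class IIb, 10 of 31 in class IIa and 33 of 87 in the family, against 3348 of 7262 hairpins in the pool. In that fit the class means were 0.29, 0.34, 0.21 and 0.16, and the family's mean was 0.28 beside 0.29 for all hairpins. Scaling by library totals in place of TMM raised the median of all hairpins by 0.16 on the log2 scale and gave the family a mean of 0.20.

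The study considered only genes with at least 5 of 8 hairpins of the same sign, and also ran a gene test (Roast) that was not run here. By this sign criterion alone, on the fit used here, 4 HDAC genes were lower (HDAC1, HDAC4, HDAC6 and HDAC10) and 3 higher (HDAC5, HDAC7 and HDAC8). Over all genes 48.4% were lower and 27.3% higher by this criterion. With the replicate block 2 HDAC genes were lower and 8 higher, where 32.1% of all genes were lower and 46.1% higher, so that the whole pool moved the same way. By this tally of hairpin signs HDAC1 and HDAC10 turned from lower to higher with the block, while their summed counts kept a negative log2 fold change (-0.08 and -0.34). HDAC4 and HDAC6 were lower and HDAC5, HDAC7 and HDAC8 higher by the tally in both fits.

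By the median, overlapping hairpins were no closer to each other in fold change than other hairpins of the same gene. The 15 overlapping pairs differed by a median of 1.07 on the log2 scale and had the same sign in 8. The other 286 pairs of hairpins within an HDAC gene differed by a median of 0.96 and had the same sign in 143. HDAC2.516 and HDAC2.517, whose targets are offset by 1 base, had 234, 98.2 and 216 CPM and 234, 54.8 and 97.3 CPM untreated, but 157, 126 and 182 CPM and 285, 296 and 289.9 CPM under AZA (-0.39 ± 0.51 and 1.03 ± 0.53). HDAC10.2625 and HDAC10.2626 had 0.44 and -1.19, and HDAC1.263 and HDAC1.264 had -0.92 and -0.18. In the first HDAC8 cluster the 3 hairpins had 0.25, -1.0 and -0.26, and in the second 0.23, -0.84 and 2.77. The knockdown each hairpin gave was not measured, and its part in these differences was not tested.

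The partners of the deacetylases in the pool were looked at by complex, in the same gene test. No partner was called in any list, and 0 of their hairpins were. Over the pool 1.21% of all genes and 0.0689% of all hairpins were called, so that 0 in lists this short is near the pool's share. The lists were chosen with earlier results of these data known. Of NuRD subunits 8 of 13 were on the higher side (median log2 fold change 0.045, against -0.015 over all genes), and the smallest p belonged to CDK2AP1 (0.52 ± 0.21 SE, edgeR adjusted p = 0.339) and MTA3 (-0.38 ± 0.20, edgeR adjusted p = 0.469). SIN3 subunits divided into 6 and 6 (median -0.017), with ARID4B at 0.28 ± 0.16 and SAP18 at -0.35 ± 0.21. For CoREST 3 of 9 were higher (median -0.029), with KDM1A, the histone demethylase LSD1, at 0.40 ± 0.28 and HMG20B at 0.33 ± 0.26.

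NCOR1, the scaffold that activates HDAC3, had the smallest p of all partners. Its hairpins summed to 1281, 1714 and 979.8 CPM untreated and to 722, 873 and 801 CPM under AZA, with all AZA samples below all untreated ones. The log2 fold change was -0.76 ± 0.23 (95% interval -1.24 to -0.27, n = 3 each), with an unadjusted p of 0.0039 and an adjusted p of 0.151 by edgeR. TBL1XR1, another subunit of NCoR/SMRT, had 0.38 ± 0.22, and 3 of the 5 genes of that list were higher. HDAC3 itself had -0.01, and the difference between the 2 genes was not tested. The 2 MiDAC genes had -0.21 (TRERF1) and 0.048 (C14orf43), and 5 of 7 sirtuins, the deacetylases that depend on NAD, were higher (SIRT3 0.19, SIRT5 -0.16, median 0.027).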

How the data were processed

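Per the labels, guide strands were amplified by PCR from genomic DNA of SKK-1 cells and sequenced. The authors deposited raw counts in 1 file for each sample (3 untreated, 3 AZA). Only hairpins with a count above 0 are listed, and the others were set to 0. CASAVA 1.9 and GRCh37 stand in the submitters' processing notes. For the step from reads to hairpins, a program is not given in the sources.

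The test took hairpins over 0.5 CPM in 3 or more libraries and used edgeR 4.0.16 (quasi-likelihood test, TMM, limma 3.58.1, R 4.3.3), with treatment as the only term and Benjamini-Hochberg adjustment over all hairpins. The same test was run on counts summed by gene. Fold changes are AZA over untreated. A gene's mean is over its tested hairpins. P-values, SEs and intervals rest on the spread between the 3 samples of a group. The edgeR fit draws each hairpin's or gene's spread toward that of all those tested, so they do not measure its own spread alone. Both groups came from the same 3 separately transduced cultures, and the main fit leaves this pairing out. DESeq2 1.42.0 and the other alternatives are given in the closing section.

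The 11 genes, the classes, the partner lists and the tests were chosen with earlier results of these data known. All 11 genes are named. Hairpins named are, per direction, the 4 with the smallest p, those at 0 in a library, the lowest, the highest and the most abundant of each gene, and those that overlap. At most 2 genes of a partner list are named.

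Replicate numbers pair the samples, since per the labels a culture was transduced first and then shared between untreated and AZA. Deviations from group means had r = 0.125, 0.118 and 0.143 for equal numbers and r = -0.0999 to -0.0216 for unequal ones. The deviations of a hairpin within a group cancel out, so positive values for equal numbers push the unequal ones to the negative side. The negative values are therefore no separate evidence for the pairing. Within a group no pair of libraries had like counts (chi-square divided by its degrees of freedom, 438 to 906).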

Additional observations from a re-analysis of the deposited data

How the results depend on the processing

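No alternative called an HDAC gene, and of the HDAC hairpins only HDAC11.623 was called, by DESeq2 (log2 fold change 2.70), which gave 1 HDAC hairpin called in place of 0. With the replicate block, 0 HDAC hairpins and 0 HDAC genes were called, and the mean log2 fold change of the family was 0.28. That mean was 0.20 with library totals and -0.10 with no filter, and -0.050 to 0.19 when 1 library was left out in turn. The fit with no filter takes in HDAC5.898, which was seen in 1 library only. In it the mean over the hairpins of HDAC5 went from 0.30 to -1.27, while those of the other HDAC genes hardly moved. The class IV value was -0.23 as a median in place of the mean, and -0.32 to 0.30 without 1 library. Over the whole pool, 5 hairpins were called, 13 by the exact test, 135 by DESeq2 and 0 to 5 without 1 library. Over the whole pool, 11 genes were called, 53 by DESeq2 and 5 to 16 without 1 library.

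Many values changed sign, among them some far from 0 such as HDAC10.800 (-1.70), HDAC10.1597 (0.86) and HDAC11.2270 and HDAC2.923 (-0.73 each). With library totals HDAC10.797 had 0.064, HDAC6.178 0.091 and HDAC3 0.014. With the replicate block HDAC1.264 had 0.31, HDAC10.797 1.25, HDAC10.800 1.33, HDAC11.2270 0.13, HDAC5.2557 0.091 and HDAC3 0.016. By limma on mean log2 CPM HDAC1 had 0.13, HDAC3 0.31, HDAC6 0.032 and HDAC10 0.68. Leaving out 1 library in turn, the summed counts ranged over -0.22 to 0.019 for HDAC1, -0.080 to 0.26 for HDAC2, -0.20 to 0.17 for HDAC3, -0.25 to 0.44 for HDAC4, -0.24 to 0.37 for HDAC5, -0.20 to 0.15 for HDAC6, -0.034 to 0.50 for HDAC7 and -0.0048 to 0.42 for HDAC8. HDAC9 (0.072 to 0.61), HDAC10 (-0.44 to -0.14) and HDAC11 (0.079 to 0.53) kept their sign. In the same way HDAC1.264 ranged over -0.60 to 1.19, HDAC1.716 -0.71 to 0.22, HDAC2.923 -1.23 to 0.15, HDAC5.2543 -0.14 to 0.67, HDAC5.2557 -1.34 to 1.37, HDAC6.173 -1.25 to 0.075, HDAC6.178 -0.31 to 0.093 and HDAC6.3872 -0.66 to 0.40. HDAC7.2298 ranged over -0.32 to 0.80, HDAC7.2346 -0.36 to 0.56, HDAC7.2348 -0.42 to 0.55, HDAC8.40 -0.41 to 0.56 and HDAC8.79 -0.30 to 0.58. HDAC10.797 ranged over -0.67 to 0.74, HDAC10.800 -2.29 to 2.01 (the highest without untreated 2), HDAC10.1597 -0.33 to 1.43, HDAC10.2625 -0.10 to 1.88 and HDAC11.2270 -1.27 to 0.91. The cause of these changes was not tested. Depth was not varied, and it bounds a hairpin at 0 counts only to the level of 3 counts.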
